A study of Papio anubis and Macaca fascicularis and Castor canadensis with 48 samples.

Results

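The cerebellum of the long-tailed macaque (Macaca fascicularis) was compared with the kidney of the same species, using 6 cerebellum and 5 kidney libraries of bulk RNA sequencing, 11 of the 48 libraries in the series. The members were chosen by the tissue and species in the labels. The labels describe the animals as male, wild-type adults, the protocol calls them young adults, and their organs came from a primate research center and were frozen on dry ice before RNA was extracted with a column kit. The macaque libraries are labelled 1 to 6 in each organ, and no kidney library is numbered 4. The labels do not say whether equal numbers mark 1 animal, and the libraries of a group are taken here as separate samples. Beside these 11 libraries, 6 macaque livers entered the fit to estimate the spread, and 6 brains and 6 kidneys of the baboon (Papio anubis), also male, wild-type adults from that collection, served as a second pair of organs. No region of the brain is given for the baboon. The 6 baboon livers entered the joint fit of both species below through its filter, scaling and spread, but not its contrasts.

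The cerebellum is a part of the hindbrain that tunes movement and posture. Most of its neurons are small granule cells packed in 1 layer, whose signals converge on Purkinje cells, and glia surround both. The kidney filters blood in its glomeruli and recovers water, salts, sugars and amino acids along a tubule of epithelial segments, so epithelial cells make up much of the organ. Such organs hold few cell types in common. In whole tissue, fewer cells of a type and less RNA per cell cannot be told apart, and this holds for every result below.

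Each of the 16816 rows of the deposited table is known by a mouse Ensembl gene ID, and the files do not pair these IDs with gene names. In the reference table used here, 0 of them were paired with a symbol, so genes are described by their number, their level and their pattern, and no cell type marker could be read. The labelled organs were checked against the baboon in place of markers. Each of the 6 macaque cerebella was nearest to baboon brain among the baboon organs, with a median Spearman correlation of 0.890 across 14466 genes over 36 pairs of libraries. Each of the 5 macaque kidneys was nearest to baboon kidney, with a median of 0.948 over 30 pairs. These correlations run over genes and describe the libraries, and genes are not independent replicates. Between macaque cerebellum and macaque kidney the median was 0.601 over 30 pairs, with a range of 0.593 to 0.616. Pairs within the cerebellum ran from 0.982 to 0.991 and pairs within the kidney from 0.978 to 0.988, so no library of either organ stood apart from its own group.

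The total count per library was 17.2 M ± 1.98 in cerebellum (SD, n = 6; range 14.8 M to 20.5 M) and 18.9 M ± 1.40 in kidney (n = 5; range 17.4 M to 21.0 M), where M is mega. The totals did not differ beyond the spread between libraries (exact permutation test, two-sided, p = 0.152). Between 97.3% and 99.0% of the counts of 20 or less (above 0) were even in each of the 11 libraries, and 2 deposited counts were therefore taken as 1 read pair for the limits given below. CPM (counts per mega-count of the library) has no correction for gene length, so the level of a gene is compared between organs. Where genes are grouped or chosen by CPM below, that level also depends on gene length.

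Counts were spread over more genes in the cerebellum than in the kidney. The genes needed to hold 50% of a library's counts numbered 952, 985, 984, 956, 1058 and 1071 in cerebella 1 to 6, against 586, 493, 610, 723 and 671 in kidneys 1, 2, 3, 5 and 6. The 2 organs did not overlap, with 1001 ± 51.2 genes in cerebellum (SD, n = 6) and 617 ± 87.4 in kidney (n = 5). The 10 most counted genes of a library held 8.79%, 8.73%, 7.48%, 8.18%, 5.64% and 6.44% of the counts in cerebella 1 to 6, against 16.5%, 22.1%, 15.1%, 11.7% and 14.0% in the 5 kidneys. Every kidney lay above every cerebellum, and kidney 2 was the highest. Both differences had p = 0.00216 (exact permutation test, two-sided), which is the smallest p that 462 arrangements of 6 and 5 libraries allow, and p = 0.00756 after Benjamini-Hochberg adjustment over 7 such tests.

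More genes reached 1 CPM in the cerebellum, on CPM not rescaled by the TMM factors that the fits below use. The number was 12470 ± 115 in cerebellum (SD, n = 6; range 12345 to 12674) and 12312 ± 71.1 in kidney (n = 5; range 12227 to 12388), a difference of 157.5 genes (exact permutation test, two-sided, p = 0.0216, adjusted p = 0.0378). The ranges overlapped: cerebellum 1, at 12345 genes, lay below kidney 5 at 12382 and kidney 6 at 12388. Between libraries of equal number, the cerebellum had 118, 176, 223, 40 and 286 genes more than the kidney (numbers 1, 2, 3, 5 and 6), so all 5 pairs had the same sign. An exact paired sign-flip test gave p = 0.0625, the smallest that 5 pairs allow, for this measure and for the 2 described above. The unpaired call does not hold without kidney 1 (p = 0.0667), without kidney 2 (p = 0.0619) or without kidney 3 (p = 0.0524), each by the same exact permutation test. The TMM factors averaged 1.49 in cerebellum and 1.29 in kidney, so equal rescaled levels print as a higher CPM in cerebellum. How much of the 157.5 genes this accounts for was not tested. Genes with no count at all averaged 2486 ± 77.2 in cerebellum (n = 6) and 2618 ± 81.3 in kidney (n = 5; exact permutation test, p = 0.0281, adjusted p = 0.0393; exact paired test, p = 0.125).

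**Figure D1:**
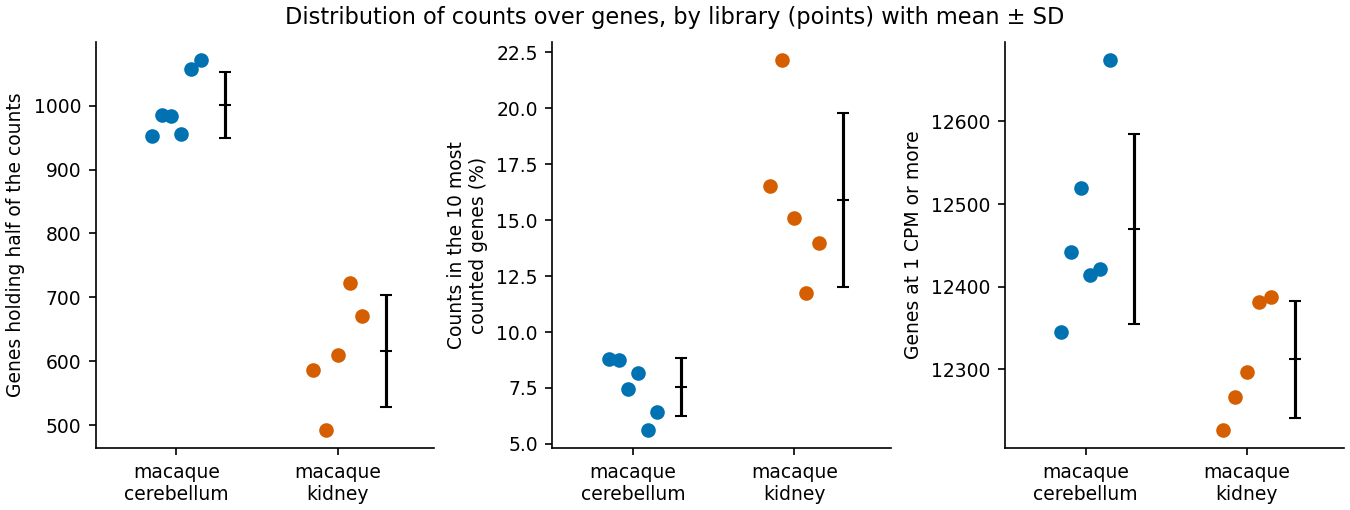
Genes that hold 50% of the counts (left), percent of counts in the 10 most counted genes (middle) and genes at 1 CPM or more (right), with 1 point per library of macaque cerebellum (n = 6) and kidney (n = 5) and bars for the mean ± SD; the axes do not start at 0. The 2 organs are separate in the first 2 plots and overlap in the third. There, on CPM not rescaled, cerebellum reached 12470 genes on average and kidney 12312.

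Which genes differed between the organs was tested on the counts with edgeR's quasi-likelihood F test, with p-values adjusted by the Benjamini-Hochberg method over the 13927 genes that passed the filter on low counts. At an adjusted p under 0.05, 10553 genes were called, 75.8% of those tested. Of these, 5284 were higher in cerebellum (37.9% of the genes tested) and 5269 were lower (37.8%). The scaling centres the fold changes, so nothing is read from the near-equal numbers. At an unadjusted p under 0.05 the number was 10750. The median log2 fold change, cerebellum over kidney, over all genes tested was 0.02, and the median of its absolute value was 1.04. A call as such is therefore the common state of a gene here, and size and pattern carry the description that follows.

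A second rule asked for a change beyond 2-fold, tested against that size with edgeR's glmTreat. It called 5710 genes, 41.0% of those tested, with 2763 higher in cerebellum (19.8%) and 2947 lower (21.2%). The median log2 fold change was 3.12 among the genes higher in cerebellum and -2.79 among those lower. The lower genes were more in number. At a log2 fold change of 6 or more, 585 called genes were higher, against 448 called genes lower by as much. Some of these rest on a group with no count, whose fitted value is no bound. With such genes set to their lower bound, the bands held 534 and 422 genes. The bounds of the 2 directions are on different scales, as given below. Neither the fitted nor the bounded numbers are therefore compared between the directions.

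**Figure D2:**
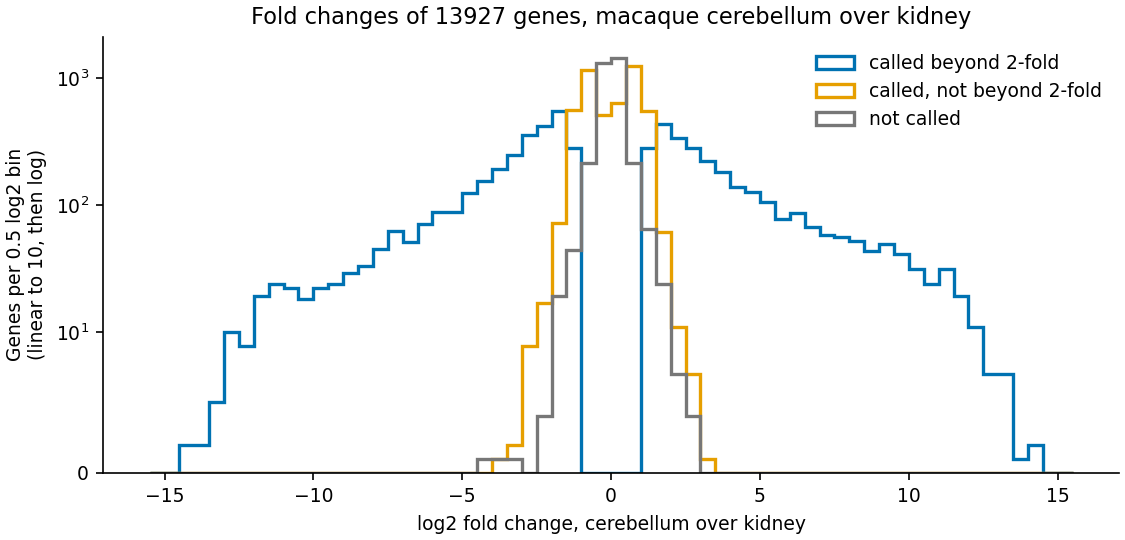
Number of genes per 0.5 log2 bin (vertical axis, linear up to 10 and logarithmic above) by log2 fold change of macaque cerebellum over kidney (horizontal axis), for genes called beyond 2-fold, called only as different, and not called. The fitted values of genes without a count in 1 organ are included. The genes called beyond 2-fold form 2 arms, 2763 genes on the right and 2947 on the left.

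The libraries of the 2 organs did not overlap for 68.0% of the genes tested: on the TMM-scaled levels, all 6 cerebella lay above all 5 kidneys for 4823 genes and below them for 4647. Of the genes called, whose share was 75.8%, 9318 showed no overlap and 1235 did. Another 152 genes showed no overlap without being called. Among genes called higher, 5152 of 5284 were higher in the cerebellum in each of the 5 pairs of libraries with equal number. Among genes called lower, 5093 of 5269 were lower in each. The same libraries called these genes, so the numbers are a description and no further evidence for the calls.

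Not being called was not the same as being alike. The 95% interval of the fold change lay within 2-fold in either direction for 4555 genes, of which 2374 were not called and 2181 were called as different by less than 2-fold. For the other 1000 genes not called, the interval reached beyond 2-fold, so a difference of that size was not excluded. These genes had a median mean level of 2.01 CPM, against 32.2 CPM for the uncalled genes with an interval within 2-fold.

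The share of genes called grew with level. Of genes under 1 CPM on average, 54.5% were called, against 71.7% from 1 to 10 CPM, 76.6% from 10 to 100 CPM, 85.1% from 100 to 1000 CPM and 82.2% of the 45 genes at 1000 CPM or more. The median standard error of the log2 fold change was 0.68 under 1 CPM and 0.13 from 100 to 1000 CPM. The direction also differed by level: from 100 to 1000 CPM, 1111 genes were called higher in cerebellum and 858 lower, whereas from 1 to 10 CPM 939 were higher and 1154 lower. The level here is the mean over the cerebella and kidneys on CPM not rescaled. Equal rescaled levels print as a higher CPM in cerebellum, and cerebella outnumber kidneys in that mean. A gene higher in cerebellum is thus placed at a higher level than a gene lower by as much. No test was run of this difference in direction, and how much of it comes from this grouping was not tested. Nothing is therefore read from it.

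The genes that differed beyond 2-fold held a large share of the RNA counted in the organ where they were higher. In the following shares the genes were chosen by the same contrast, so the values for macaque cerebellum and kidney are a description. The 2763 genes called beyond 2-fold higher in cerebellum held 34.8% ± 0.646 of the counts in cerebellum (SD, n = 6; range 34.1% to 35.6%) and 4.13% ± 0.120 in kidney (n = 5; range 4.03% to 4.32%). The 2947 genes called beyond 2-fold lower held 5.88% ± 0.143 in cerebellum (n = 6) and 38.4% ± 2.25 in kidney (n = 5; range 34.7% to 40.6%). The 4555 genes with an interval within 2-fold held 35.8% ± 0.472 in cerebellum (n = 6) and 30.6% ± 1.02 in kidney (n = 5). The narrow ranges show libraries of an organ that were alike in this respect, with kidney 2 the lowest for the kidney genes at 34.7%.

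The baboon libraries had no part in the choice of these genes. In baboon brain the genes higher in macaque cerebellum held 34.0% ± 1.28 of the counts (SD, n = 6), against 4.66% ± 0.321 in baboon kidney (n = 6). The genes lower in macaque cerebellum held 7.16% ± 0.464 in baboon brain (n = 6) and 36.8% ± 1.53 in baboon kidney (n = 6). The macaque livers entered the fit through its filter, scaling and spread, but not the contrast. In them the genes higher in cerebellum held 7.86% ± 0.453 (n = 6), and the genes lower in cerebellum held 29.7% ± 1.21 (n = 6). Liver thus lay nearer to kidney than to cerebellum in both sets.

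**Figure D3:**
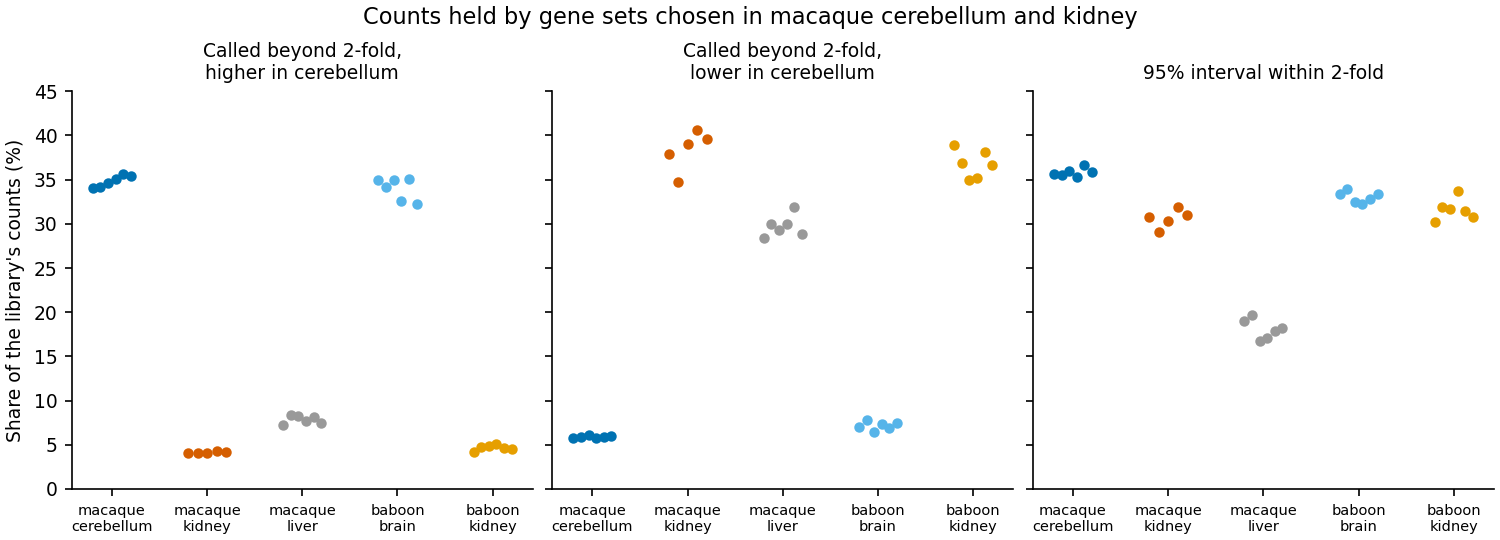
Percent of each library's counts (vertical axis) held by the genes called beyond 2-fold higher in macaque cerebellum, called beyond 2-fold lower, and with a 95% interval within 2-fold, with 1 point per library in 5 groups. The first set held 34.8% in macaque cerebellum and 34.0% in baboon brain on average, and 4.13% and 4.66% in the kidneys of the 2 species.

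Some genes reached 1 CPM in 1 of these 2 organs only. CPM was not rescaled here either, so the numbers of such genes are not compared between the 2 organs. Among the genes tested, 10663 reached 1 CPM in all 11 libraries. Another 638 genes reached 1 CPM in all 6 cerebella and in none of the 5 kidneys, and 463 did so in all 5 kidneys and in none of the 6 cerebella. Of the 638 cerebellum genes, 543 were also under 1 CPM in all 6 macaque livers and 30 were at 1 CPM or more in all 6. Of the 463 kidney genes, 219 were under 1 CPM in all livers and 154 at 1 CPM or more in all 6. The livers therefore held 1 CPM or more of a larger part of the kidney genes than of the cerebellum genes, and this difference was not tested.

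In the baboon, 365 of the 638 cerebellum genes reached 1 CPM in all 6 brains and in none of the 6 kidneys, and 0 did the reverse. Of the same 638 genes, 33 were under 1 CPM in all 6 baboon brains. Of the 463 kidney genes, 240 reached 1 CPM in all 6 baboon kidneys and in none of the 6 brains, 1 did the reverse, and 21 were under 1 CPM in all 6 baboon kidneys.

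A stricter set had no count in any library of the other organ. With a mean of 1 CPM or more in cerebellum, 97 genes had no count in the 5 kidneys, of which 42 averaged 10 CPM or more and 2 averaged 100 CPM or more. With a mean of 1 CPM or more in kidney, 55 genes had no count in the 6 cerebella, of which 28 averaged 10 CPM or more and 4 averaged 100 CPM or more. A count of 0 over a whole group allows up to 3 read pairs (6 counts), which is 0.0581 CPM over the cerebella and 0.0636 CPM over the kidneys. Each bound is the smaller of 2 ratios, on CPM as printed and on CPM rescaled by the TMM factors. The rescaled ratio was the smaller for genes higher in cerebellum and the plain ratio for genes lower, so bounds of the 2 directions are not compared. On that basis the 97 genes were at least 15.6-fold to 2809-fold higher in cerebellum, with a median bound of 80.5-fold, and the 55 genes at least 17.3-fold to 2947-fold lower, with a median bound of 186-fold. These limits take in counting error alone, because PCR copies of a molecule can be read more than once. In macaque liver, 53 of the 97 genes and 13 of the 55 had no count either.

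Genes to be named were ranked by fitted log2 fold change among those that averaged 50 CPM or more in their higher organ. The first 2 in each direction had no count in the lower organ, where the fitted value is no bound, so this order does not rank their true folds. A gene placed after them among those lower in cerebellum, for example, averaged 0.203 CPM in cerebellum and 1742 CPM in kidney. ENSMUSG00000058153 had a lowest value of 172.9, a median of 199.2 and a highest value of 245.9 CPM in the 6 cerebella, against 0 in all 5 kidneys. It was at least 2809-fold higher in cerebellum (edgeR's quasi-likelihood test, adjusted p = 4.11e-13). ENSMUSG00000061911 had a lowest value of 145.3, a median of 173.1 and a highest value of 178.0 CPM in the 6 cerebella, against 0 in all 5 kidneys, and was at least 2311-fold higher (edgeR, adjusted p = 6.39e-12). Cerebellum 1 was the lowest for the second gene, and cerebellum 6 for the first.

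On the other side, ENSMUSG00000020679 had 0 CPM in all 6 cerebella, against 147.6, 156.0, 180.0, 199.5 and 172.5 CPM in kidneys 1, 2, 3, 5 and 6. Kidney 5 was the highest and kidney 1 the lowest, and the level was at least 2947-fold lower in the cerebella (adjusted p = 5.87e-12 by edgeR). For ENSMUSG00000029829 all 6 cerebella were at 0 CPM, against 149.0, 105.4, 102.0, 131.3 and 147.3 CPM in the 5 kidneys, a level at least 2187-fold lower in the cerebella (adjusted p = 2.48e-12 by edgeR). Among the first 12 genes of this ranking in each direction, 6 of those higher and 5 of those lower had no count in the other organ.

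In the baboon these 4 genes lay on the same side, each called in edgeR's joint fit. ENSMUSG00000058153 averaged 219.7 ± 30.9 CPM in baboon brain and 0.0562 ± 0.0919 CPM in baboon kidney (SD, n = 6 each). ENSMUSG00000061911 averaged 278.2 ± 47.3 CPM in baboon brain and 0.0766 ± 0.119 CPM in baboon kidney. ENSMUSG00000020679 averaged 0.256 ± 0.159 CPM in baboon brain and 178.6 ± 26.7 CPM in baboon kidney. ENSMUSG00000029829 averaged 0.0208 ± 0.0509 CPM in baboon brain and 104.8 ± 26.1 CPM in baboon kidney. For ENSMUSG00000020679, whose baboon brains held 24 counts against 0 in macaque cerebellum, the difference between the species was itself called (edgeR, adjusted p = 0.000185), and for the other 3 genes it was not (adjusted p of 0.0581 to 0.143). Only ENSMUSG00000020679 was also seen in macaque liver above 1 CPM, at 4.77 ± 1.80 CPM (n = 6).

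Libraries of the kidney varied more among themselves than those of the cerebellum. Over 7151 genes at 10 CPM or more in all 11 libraries, the median SD of the log2 level was 0.13 in cerebellum and 0.16 in kidney. The SD was larger in kidney for 4518 of these genes and larger in cerebellum for 2633. Genes with an SD above 1 numbered 50 of the 9514 that averaged 10 CPM or more in cerebellum (0.526%) and 104 of 9276 in kidney (1.12%), with 6 in both. Cerebellum 6 was the farthest from the median for 18 of the 50, and kidney 1 for 36 of the 104. No test was run of this difference in spread, and the numbers of libraries differ between the organs.

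Whether the macaque difference was shared by another pair of neural and renal tissue was asked with the baboon, whose libraries do not enter the macaque comparison. In a joint fit of 35 libraries, which held the livers of both species as well, 14466 genes were tested. Baboon brain and kidney differed for 10997 genes (76.0%), of which 5481 were higher in brain (37.9%) and 5516 lower (38.1%). Macaque cerebellum and kidney differed for 10946 genes (75.7%) in this fit. Of the genes called, 9073 were called in both species, which is 82.9% of the macaque calls and 82.5% of the baboon calls. The direction was the same for 8436 of them (93.0%) and opposite for 637. The fold changes of the 2 comparisons had Pearson's r = 0.842 and Spearman's rho = 0.797 across genes, given as a description.

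The genes with a change beyond 2-fold kept their direction in most cases. Of 2762 such genes higher in macaque cerebellum that were in the joint fit, 2450 were called higher in baboon brain, 67 lower and 245 were not called, and their median log2 fold change in baboon was 2.83. Of the 2947 lower ones, 2580 were called lower in baboon brain, 95 higher and 272 not called, with a median of -2.16. Over all genes the baboon median was -0.00124. The difference between the species, described next, was called for 44.6% of the 2762 genes and 44.0% of the 2947. The macaque libraries that chose the genes also enter that test, so nothing is read from these shares.

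The difference between the 2 organ comparisons, macaque minus baboon, was itself tested as an interaction term in edgeR. It was called for 5713 genes (39.5%), of which 2632 were higher (18.2%) and 3081 lower (21.3%) in the macaque comparison than in the baboon one. The order of these 2 counts depends on the processing. With only the compared libraries, thus without the livers of both species, 3548 were higher and 3203 lower. With upper-quartile scaling 2828 were higher and 2854 lower. At an unadjusted p under 0.05 the number was 6824. Beyond 2-fold, the difference was called for 1562 genes (10.8%), of which 645 were higher (4.46%) and 917 lower (6.34%). The median absolute size of the difference over all genes was 0.58 on the log2 scale, against 1.07 for the macaque and 1.02 for the baboon organ difference. Because the labels give cerebellum in the macaque and brain in the baboon, region and species cannot be told apart.

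Among the 2632 genes with a higher difference, 673 were called higher than kidney in both species, 498 were called lower than kidney in both, 326 were higher in macaque cerebellum and lower in baboon brain, 621 were called higher in macaque cerebellum with no call in baboon, 494 were called lower in baboon brain with no call in macaque, and 20 were called in neither. Among the 3081 with a lower difference, 887 were called lower in both, 771 higher in both, 311 lower in macaque cerebellum and higher in baboon brain, 524 lower in macaque cerebellum with no call in baboon, 573 higher in baboon brain with no call in macaque, and 15 were called in neither. All 637 genes of opposite direction had a called difference, which opposite calls in the same fit make nearly certain. The interaction therefore held more changes of size than of direction.

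The neural libraries of macaque and baboon, which differ in labelled region as well as species, lay farther apart than the kidney libraries for most of these genes. Over the 5713 called genes, the median absolute log2 difference of macaque cerebellum from baboon brain was 0.86, against 0.32 for macaque kidney from baboon kidney. The neural difference was the larger for 4284 genes and the kidney difference for 1429. Over all 14466 genes these medians were 0.55 and 0.30. The interaction is the signed neural difference minus the signed kidney difference, so the 5713 genes were chosen on these same values. Their numbers are a description, and the 2 distances were not tested against each other.

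**Figure D4:**
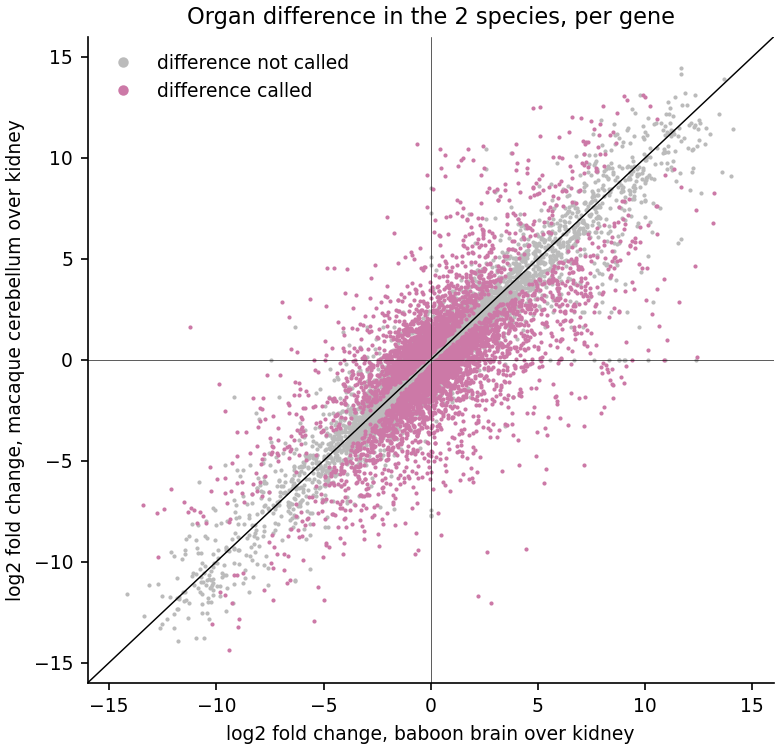
Log2 fold change of macaque cerebellum over kidney (vertical axis) against that of baboon brain over kidney (horizontal axis), with 1 point per gene (14466 genes) and the diagonal of equal change; colour marks the genes whose difference was called. Most points lie near the diagonal, and 637 genes called in both species have opposite signs.

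Interaction differences were ranked by fitted size among genes that averaged 20 CPM or more in at least 1 of the 4 groups. ENSMUSG00000041261 had a lowest value of 238.3, a median of 285.9 and a highest value of 302.3 CPM in the 6 macaque cerebella, against 0.215, 0.115, 0.112, 0.190 and 0.207 CPM in the 5 macaque kidneys. It averaged 9.59 ± 1.44 CPM in baboon brain and 7.06 ± 3.84 CPM in baboon kidney (SD, n = 6 each). The macaque groups were far apart while the baboon groups overlapped, and the difference was 9.99 ± 0.58 on the log2 scale (SE; edgeR, adjusted p = 6.23e-15).

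ENSMUSG00000058624 had 0 CPM in macaque cerebella 1 to 5 and 0.121 in cerebellum 6, against 46.8, 52.2, 107.5, 129.3 and 86.7 CPM in the 5 macaque kidneys. It averaged 98.5 ± 47.0 CPM in baboon brain and 21.4 ± 5.61 CPM in baboon kidney (SD, n = 6 each), so the organs lay in opposite order in the 2 species. The fitted difference of -13.90 on the log2 scale (edgeR, adjusted p = 6.65e-17) rests on 2 counts in macaque cerebellum, under the floor of 6, and its size is not firm. Without macaque cerebellum 6 it was -15.52, still called.

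ENSMUSG00000059412 averaged 0.128 ± 0.209 CPM in macaque cerebellum (SD, n = 6) and 466.3 ± 44.9 CPM in macaque kidney (n = 5). In the baboon it averaged 0.317 ± 0.777 CPM in brain and 0.0358 ± 0.0878 CPM in kidney (n = 6 each), and in brain it had counts in 1 library, brain 5, at 1.90 CPM. Its difference of -14.86 (edgeR, adjusted p = 8.97e-08) was -9.59 with adjusted p = 0.997 without that baboon brain, and -17.32 without baboon kidney 5, the 1 baboon kidney with counts. The baboon livers held 0 counts of it. What the data show of this gene is its level in macaque kidney, not a baboon brain to kidney change. Whether baboon reads of this gene are assigned to this ID as macaque reads are was not tested.

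The fourth gene, ENSMUSG00000056959, had 2 counts in all macaque cerebella and 0 in the macaque kidneys, against 0 in baboon brain and 20.2 ± 18.4 CPM in baboon kidney (SD, n = 6; range 3.00 to 43.8 CPM). Its fitted difference of 12.84 (edgeR, adjusted p = 0.0115) rests on groups with no count and is no bound. Without macaque cerebellum 6, the library with those counts, the adjusted p was 1. No statement on the macaque organs can be made from it.

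**Figure D5:**
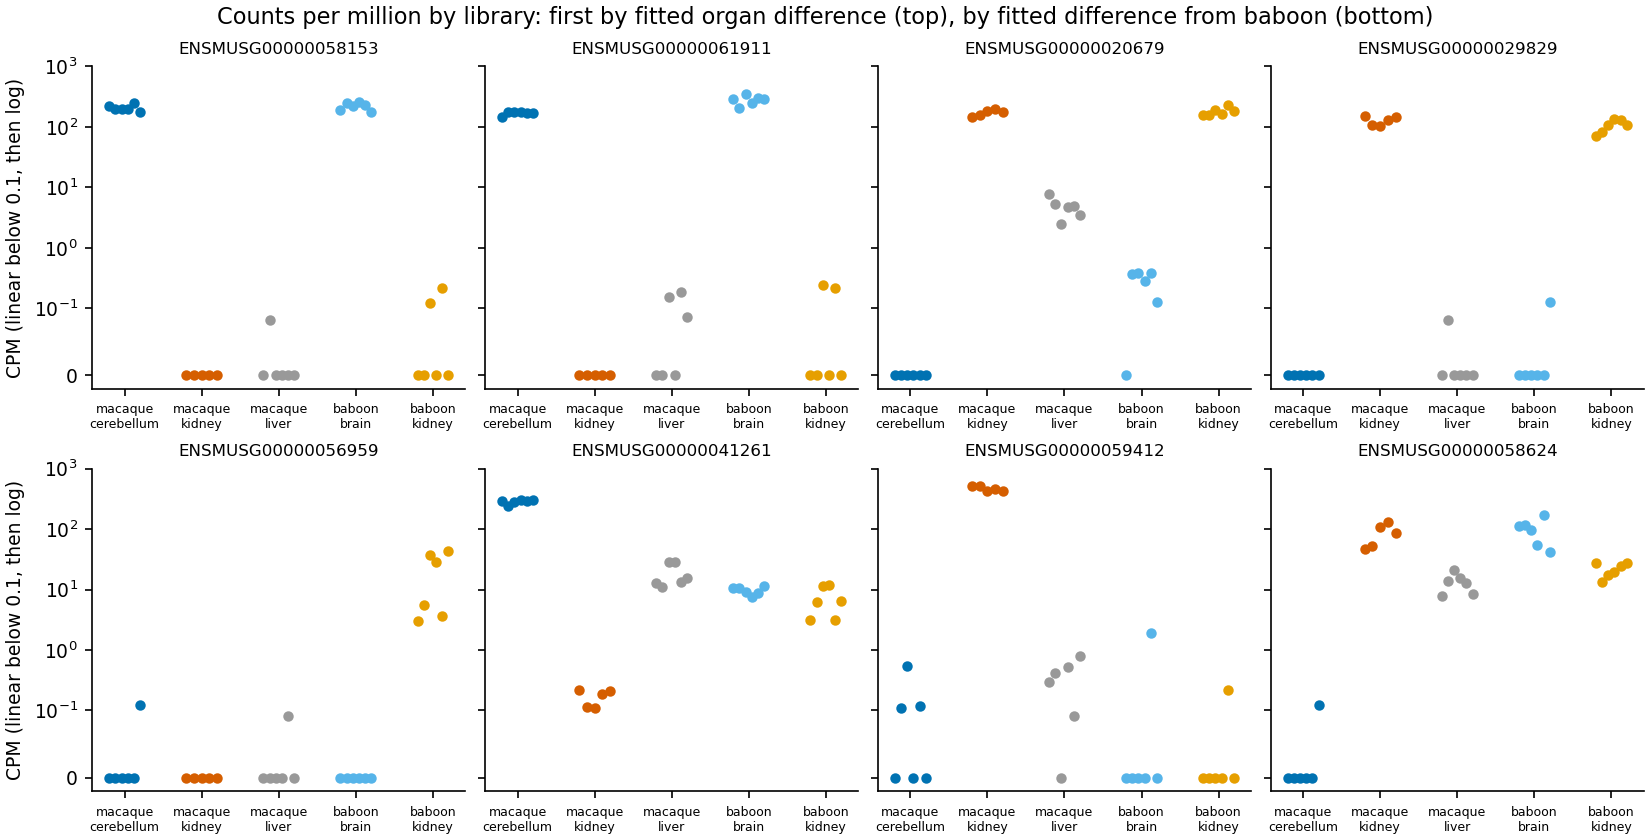
CPM in each library (vertical axis, linear below 0.1 and logarithmic above) of the 4 genes ranked first by fitted organ difference (top row) and the 4 ranked first by fitted difference between macaque and baboon (bottom row), with 1 point per library in 5 groups. In the top row the organs are apart in both species. In the bottom row the order or the distance of the organs differs between the species for ENSMUSG00000041261 and ENSMUSG00000058624. For ENSMUSG00000059412 and ENSMUSG00000056959 the difference lost its call without 1 library.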

How the data were processed

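The authors deposited raw counts per gene ID in a single table, not normalized, with 1 column per library (48 columns, 0 unmatched). STAR and featureCounts appear in the submitters' processing notes. For the versions of both tools, the genome build, the assignment of primate reads to mouse gene IDs and the use of strand, no statement is given in the sources used here. Reads shared by near-identical or overlapping genes could not be recognised. Counts were tested in R 4.3.3 with edgeR 4.0.16 (TMM scaling, filterByExpr, quasi-likelihood fit, glmTreat against a log2 fold change of 1) (with limma 3.58.1 as its base package), with DESeq2 1.42.0 as an alternative, and adjusted by Benjamini-Hochberg over all genes tested. The macaque fit held 17 libraries, and the joint fit 35 with the brains, kidneys and livers of the baboon. Group was the only factor. Standard errors were taken from the F statistic. Intervals cover 95%. The scripts were tested on simulated data in which few genes differed. Most genes differ in the real comparison, so that test does not cover the scaling used here.

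The genes named are the first 2 per direction among the 12 with the largest fitted change that averaged 50 CPM or more in their higher organ with libraries that do not overlap, and among the 8 with the largest fitted interaction difference that averaged 20 CPM or more in 1 of 4 groups. The gene lists and cell type markers were written as symbols and could not be used, so the list-based part of that rule was not run. The libraries, lists and rules were chosen with earlier results of these data known.

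Equal replicate numbers in macaque cerebellum and kidney were treated as pairs in an alternative fit: over 6578 genes, deviations from the group mean correlated at 0.211 to 0.300 between libraries of equal number (5 pairs, each above 0.1) and at -0.164 to 0.167 between others. The pairing comes from these correlations and from shared label numbers. P-values measure the spread between these libraries, which the labels do not tie to separate animals.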

Additional observations from a re-analysis of the deposited data

Results flagged for a closer look

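The organ difference of the macaque differed from that of the baboon for 5713 genes, by a test of the difference itself in edgeR, and the 4 named genes among them had log2 differences of 12.84 (ENSMUSG00000056959), 9.99 (ENSMUSG00000041261), -14.86 (ENSMUSG00000059412) and -13.90 (ENSMUSG00000058624). The first rests on groups with no count and lost its call without macaque cerebellum 6, and the third lost it without baboon brain 5.

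Single libraries stood apart from the rest of their group in 9 of the 56 groups of values examined. The usual chance rate of about 1 in 20 does not hold for groups near 0. There, 1 library with counts among libraries without any is flagged by the rule itself, so the 9 are not compared with that rate. The genes higher in cerebellum by 16-fold or more held 0.212% of the counts in macaque kidney 5, above the other kidneys. ENSMUSG00000061911 was low in macaque cerebellum 1 (145.3 CPM), and ENSMUSG00000041261 was low in macaque cerebellum 2 (238.3 CPM). The other such values are of genes near 0: ENSMUSG00000059412 was at 0.540 CPM in macaque cerebellum 3, 1.90 CPM in baboon brain 5 and 0.215 CPM in baboon kidney 5. ENSMUSG00000056959 and ENSMUSG00000058624 were each at 0.121 CPM in macaque cerebellum 6, and ENSMUSG00000029829 was at 0.125 CPM in baboon brain 6, with 0 in the other libraries of the group.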

How the results depend on the processing

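Of the values recomputed under alternatives, 468 kept their direction and side of the threshold (counts within 1.5 times) and 6 did not. The macaque calls (10553) ran from 10285 to 10387 with 1 library left out and from 10345 (counts halved) to 11089 (DESeq2) otherwise, and were 10704 with the replicate block of paired numbers. The calls beyond 2-fold (5710) were 5803 with the replicate block and 5188 with DESeq2. The interaction calls (5713) ran from 5348 to 5629 with 1 library left out, and were 6015 with the replicate block, 6751 with only the compared libraries and 6238 with DESeq2. The number of genes that entered also differed between settings. For the interaction it was 14466 in the main fit, 14225 with only the compared libraries and 15968 with DESeq2. For the macaque calls it was 13927 in the main fit, 13416 with counts halved and 15700 with DESeq2. The block changed the call of no named gene. The difference in genes at 1 CPM or more (157.5) ran from 116.6 to 182.4 with 1 library left out, and lost its call without kidney 1, 2 or 3; at 0.5 and 2 CPM it was 175.5 and 197.5. With the replicate block, added after the data were seen, it was 168.6 over 5 pairs (exact paired p = 0.0625, the smallest possible). The cause of these changes was not tested. The other 2 lost calls were those of the named genes given above. The median standard error of the log2 fold change was 0.68 for genes under 1 CPM; the parts of depth and of spread between libraries in it were not tested.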

Other observations

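In the macaque fit with the replicate number as a term, chosen after the data were seen, the number itself was called for 29 of 13927 genes (0.208%). In baboon, deviations between brain and kidney libraries of equal number correlated at 0.0439 to 0.180.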
